A study of Homo sapiens with 12 samples.

Results

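The mitochondrial beta-oxidation and carnitine shuttle set comprised 35 genes named by symbol, and all 35 were found among the 19677 genes listed for each library. The genes were grouped by role into the carnitine shuttle (8 genes), the long-chain step (5), the medium-chain step (2), the short-chain step (3), other acyl-CoA dehydrogenases (2), auxiliary enzymes for unsaturated fatty acids (3), electron transfer (3), branched-chain amino acid oxidation (5) and propionyl-CoA disposal (4). RNA had been sequenced from CAOV3, an established cell line of human high-grade serous ovarian carcinoma, in 12 libraries. The 4 groups of 3 libraries were control cells with the solvent DMSO, cells with 10% ovarian cancer ascites and DMSO, cells with 200 uM bezafibrate, and cells with 10% ascites and 200 uM bezafibrate, here called the combination. The labels give 16 hours for every group except the control, for which no time is listed. DMSO is named in the labels of control and ascites libraries alone, so a comparison with the drug includes any difference in solvent. The labels do not say whether replicates were separate cultures or whether the ascites had 1 source, so the p-values measure the spread between these libraries, which may be technical.

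Long-chain fatty acids enter mitochondria as carnitine esters. CPT1 makes the ester at the outer membrane, a carrier moves it across the inner membrane, and CPT2 hands the fatty acid back to coenzyme A. Beta-oxidation then shortens the chain in repeated rounds of dehydrogenation, hydration, a second dehydrogenation and cleavage by a thiolase, with separate enzymes for long, medium and short chains, and the electron transfer flavoprotein passes electrons from the acyl-CoA dehydrogenases to the respiratory chain. Many genes of the route are known targets of the PPAR nuclear receptors, the receptors that fibrates such as bezafibrate activate. Ascites is the fluid that gathers in the abdomen in ovarian cancer.

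Total counts per library ranged from 11831093 to 18762759. Levels are scaled counts (CPM, edgeR's library-size unit), and levels of different genes are compared only as CPM per kilobase of exon. Of the 35 genes, 34 passed the filter on low counts, which kept 12470 genes in all. ACADL, the long-chain acyl-CoA dehydrogenase, did not pass: it had 1 count in ascites library 2 and 0 in the other 11 libraries. The keratin and adhesion markers of an epithelial line were present, with KRT8 between 2867 and 3166 CPM and EPCAM between 25.5 and 32.6 CPM in all libraries. Markers of the ovarian serous type were near 0, with PAX8 at no more than 1.27, WT1 at no more than 0.294 and MUC16 at no more than 0.202 CPM. Combination library 3 stood apart from the other libraries on the second principal component; without it, 16 members instead of 17 were called in the combination against ascites. In bulk RNA, fewer cells of a type and less RNA per cell cannot be told apart.

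With bezafibrate, RNA rose for the carnitine importer SLC22A5, the entry enzyme CPT1A, the carrier SLC25A20, most tested enzymes of the long- and medium-chain steps and the electron transfer genes ETFA and ETFDH, whereas CPT2 passed only in the combination against ascites and ACAD9 and ETFB in neither comparison. No gene of branched-chain oxidation or propionyl-CoA disposal was called higher. In bezafibrate against control, 16 of the 34 tested genes were called (14 higher, 2 lower) at a Benjamini-Hochberg adjusted p under 0.05 in edgeR's quasi-likelihood test over all genes, or 47.1%. Over all genes tested in that comparison, 17.6% were called, with 10.1% higher and 7.55% lower. The members were chosen with earlier results of these data known, so the higher share among them is a description only. The combination against ascites has no library in common with that comparison. There, 17 of 34 were called (15 higher, 2 lower), or 50%, against 17.8% of all genes, with 10.5% higher and 7.29% lower. Both comparisons share the scaling and the estimate of spread of 1 fit over all 12 libraries, so they are not fully independent. The median log2 fold change of the 34 genes was 0.13 without ascites and 0.12 with it, and that of all genes tested was -0.00 in each. The same 13 genes were called higher in both comparisons, 1 was called lower in both, 5 were called in 1 only and 15 in neither. Of the 34, 31 had the same sign in both. The matching shares over all genes tested were not computed, so whether these counts are unusual cannot be read from them.

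**Figure D1:**
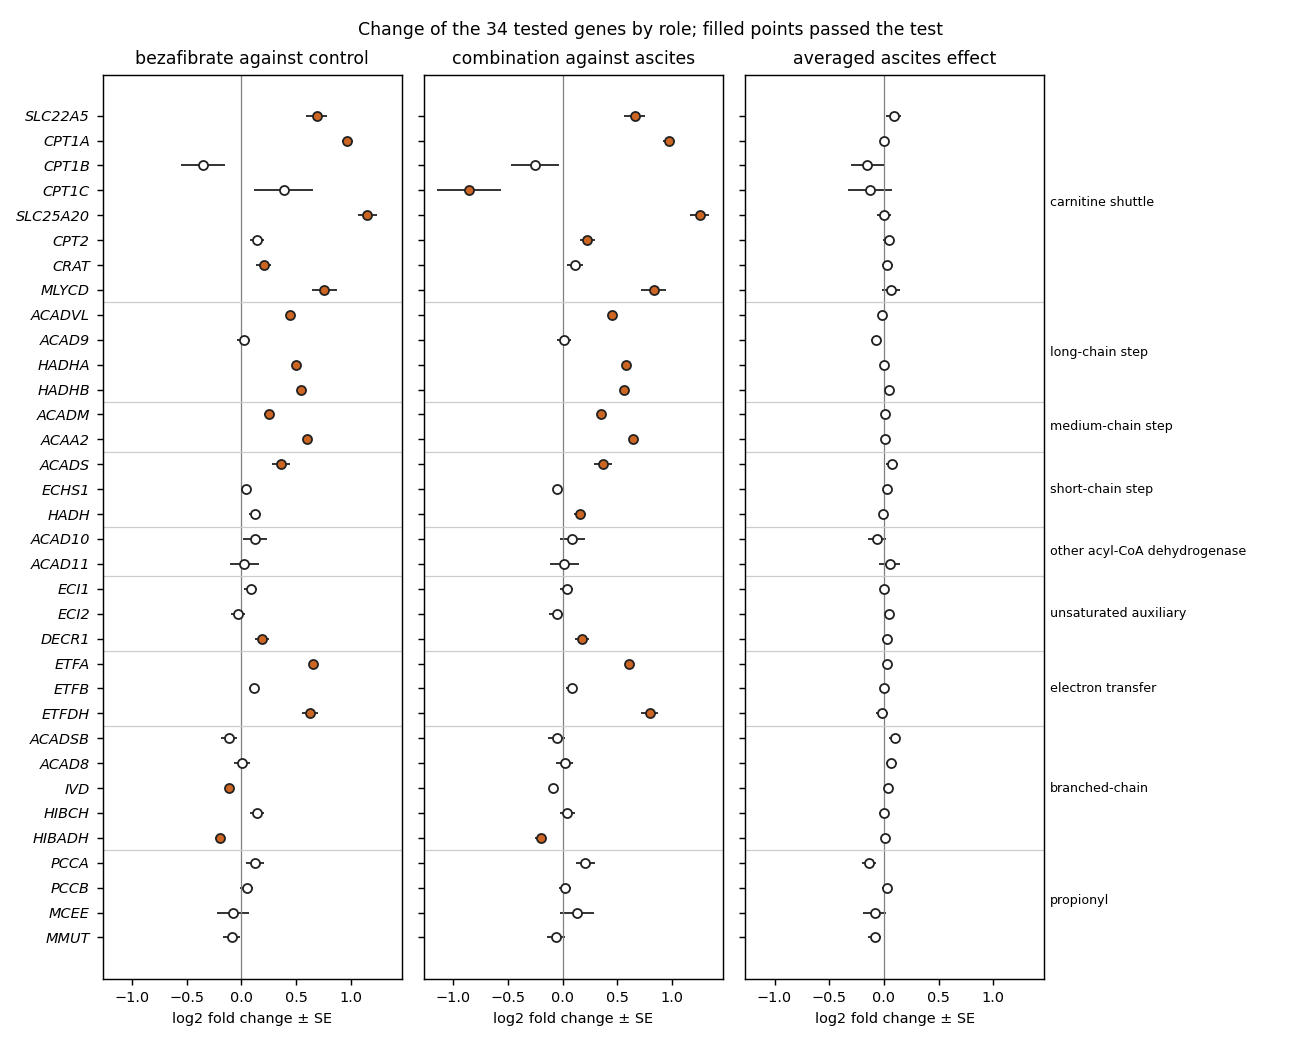
Log2 fold change with its standard error (x axes, from edgeR's fit over all 12 libraries) for the 34 tested genes, ordered by role (y axis), in bezafibrate against control, in the combination against ascites and for the ascites effect averaged over both drug states. Filled points passed an adjusted p of 0.05 over all genes: 16, 17 and 0 genes in the 3 panels.

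The summed level of each role describes how the change was spread over the set. The 8 shuttle genes summed to 303.6 ± 5.84 CPM in control libraries (SD, n = 3), 305 ± 5.52 with ascites, 544 ± 15.8 with bezafibrate and 546 ± 34.7 in the combination, a ratio to control of 1.79 with bezafibrate and 1.80 in the combination. CPT1A dominated that sum. The long-chain sum went from 1165 ± 17.7 to 1615 ± 14.9 CPM with bezafibrate and stood at 1633 ± 6.33 in the combination, ratios of 1.39 and 1.40. The medium-chain sum had ratios of 1.36 and 1.40, and the electron transfer sum had ratios of 1.42 and 1.42. Ratios were 1.07 and 1.07 for the short-chain step, 1.06 and 1.07 for the unsaturated auxiliary enzymes, 0.943 and 0.965 for the branched-chain enzymes, and 1.01 and 0.997 for propionyl-CoA disposal. For the shuttle, long-chain, medium-chain and electron transfer sums, every library with the drug lay above every library without it. The short-chain sum also separated, narrowly (at most 181.6 CPM without the drug and at least 182.5 with it), and the branched-chain sum separated downward (at least 281.7 CPM without and at most 279.8 with it). The other 3 roles overlapped. No test was run on these sums, which are dominated by their most abundant genes. How often sums of other genes separate drug from no-drug libraries was not computed, so the separation is a description only.

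**Figure D2:**
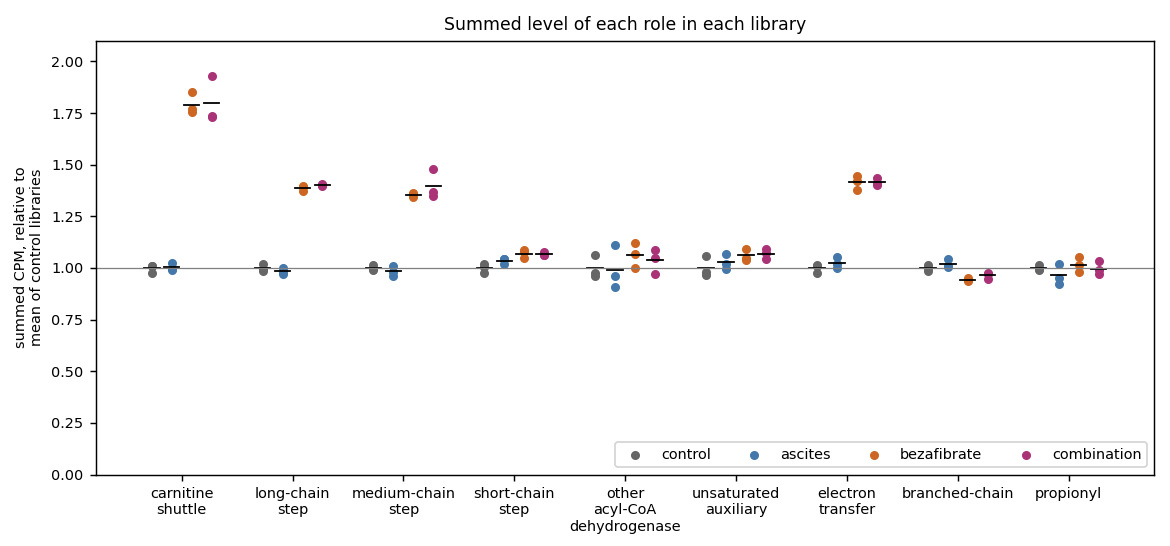
Summed CPM of the genes of each role in each library, divided by the mean of the control libraries (y axis, linear from 0), for 9 roles (x axis). Points are libraries, coloured by group, and short bars are means of 3. The carnitine shuttle reached a mean ratio of 1.79 with bezafibrate and 1.80 in the combination, and the branched-chain sum lay at 0.943 and 0.965.

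The carnitine shuttle held the largest changes of the set. SLC25A20, the carrier that exchanges acylcarnitine for carnitine across the inner mitochondrial membrane (chr3:48856931-48898993, minus strand, GRCh38), stood at 10.9, 11.6 and 12.1 CPM in the control libraries and 10.7, 12.3 and 10.4 CPM with ascites. It stood at 26.6, 24.6 and 25.5 CPM with bezafibrate and 28.6, 24.0 and 26.4 CPM in the combination. The groups with and without the drug did not overlap. It rose by a log2 fold change of 1.15 (SE 0.086, adjusted p 1.84e-13, edgeR) without ascites and 1.25 (SE 0.088, adjusted p 3.29e-14) with ascites, the largest rise of the 34 genes in each comparison. The 250 bases before its RefSeq start (chr3:48898883-48899132, minus strand, GRCh38.p14) are shown because it is the member with that largest rise. Of these bases, 66% are G or C. In GENCODE release 29 the gene reaches to 48898993, so part of the stretch lies within the gene there. Which start these cells use was not measured.
SLC25A20: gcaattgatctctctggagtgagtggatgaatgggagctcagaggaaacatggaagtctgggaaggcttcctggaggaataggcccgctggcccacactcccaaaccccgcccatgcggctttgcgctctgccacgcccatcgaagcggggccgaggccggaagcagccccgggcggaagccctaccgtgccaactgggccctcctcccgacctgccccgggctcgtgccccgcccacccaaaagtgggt

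CPT1A, the liver form of the outer-membrane carnitine palmitoyltransferase and the regulated entry step, had 225, 212 and 218 CPM in control libraries and 215, 214 and 225 CPM with ascites. With bezafibrate the libraries held 444, 424 and 415 CPM, and in the combination 399, 411 and 473 CPM, the highest of them combination library 3. Every drug library exceeded every library without the drug. The log2 fold change was 0.97 in both comparisons (SE 0.052 and 0.053, adjusted p 6.18e-10 and 6.51e-10, edgeR), close to a doubling. The 250 bases before its RefSeq start (chr11:68844278-68844527, minus strand, GRCh38.p14) are shown beside those of SLC25A20 because CPT1A is the entry step of the route; they hold 44.4% G or C.
CPT1A: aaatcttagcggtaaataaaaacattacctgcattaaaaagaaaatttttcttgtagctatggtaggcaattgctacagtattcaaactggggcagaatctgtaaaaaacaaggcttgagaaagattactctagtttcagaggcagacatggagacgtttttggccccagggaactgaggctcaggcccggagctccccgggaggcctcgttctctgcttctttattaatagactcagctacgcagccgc

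Neither of the other CPT1 genes was called higher with the drug. CPT1B, the muscle form, had 2.80, 4.70 and 4.68 CPM in control libraries, 3.49, 3.83 and 3.23 with ascites, 3.44, 2.31 and 3.85 with bezafibrate and 3.23, 2.80 and 2.70 in the combination. Its log2 fold changes were -0.35 (SE 0.202, adjusted p 0.271, edgeR) and -0.25 (SE 0.216, adjusted p 0.496), and neither passed the test. CPT1B lies within the span of the read-through gene CHKB-CPT1B, which the tables do not list, so its count is uncertain. CPT1C, the form known from brain, had 19, 18 and 16 counts in the control libraries (1.30, 1.32 and 1.27 CPM) and 26, 26 and 24 counts with ascites (1.85, 2.03 and 1.62 CPM). It had 28, 27 and 29 counts with bezafibrate (1.69, 1.45 and 1.99 CPM) and 20, 12 and 9 counts in the combination (1.17, 1.02 and 0.760 CPM). Every library with only ascites or only bezafibrate lay above every control library, and every combination library lay below all of these.

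The CPT1C change with the drug was 0.39 without ascites (SE 0.270, adjusted p 0.391, edgeR) and -0.86 with ascites (SE 0.289, adjusted p 0.0341). The difference between these changes was -1.24 (SE 0.396), with an unadjusted p of 0.0034 and an edgeR adjusted p of 0.999 over all genes, so it did not pass. CPT1C was the only one of the 34 genes with an unadjusted interaction p under 0.05, and it rests on low counts. The call in the combination against ascites was lost without ascites library 1 (adjusted p 0.0832), ascites library 2 (0.115), combination library 2 (0.0679) or combination library 3 (0.139), and in DESeq2 (adjusted p 0.112). Counting all alternatives, it was lost under 6 of 16. Per kilobase of exon, the control level was 37.7 ± 1.11 CPM for CPT1A, 1.37 ± 0.369 for CPT1B and 0.444 ± 0.00913 for CPT1C (SD, n = 3). CPT1A was therefore the abundant CPT1 transcript in these cells in every group.

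SLC22A5, the importer of carnitine at the cell surface, had 10.4, 8.23 and 10.5 CPM in control libraries, 10.4 CPM in each of the 3 ascites libraries, 16.8, 15.2 and 14.8 CPM with bezafibrate and 17.1, 15.8 and 16.2 CPM in the combination. It rose by 0.69 (SE 0.099, adjusted p 1.09e-06, edgeR) and 0.66 (SE 0.10, adjusted p 2.75e-06) on the log2 scale, with no overlap between drug and no-drug libraries. MLYCD, which breaks down malonyl-CoA, the inhibitor of CPT1, had 6.48, 6.69 and 8.25 CPM in control libraries and 7.83, 6.64 and 7.27 CPM with ascites. It had 11.9, 11.6 and 12.6 CPM with bezafibrate and 13.5, 12.2 and 12.9 CPM in the combination, again without overlap. Its log2 fold changes were 0.76 (SE 0.113, adjusted p 1.98e-06, edgeR) and 0.83 (SE 0.114, adjusted p 4.01e-07).

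CPT2, the inner-membrane transferase, moved less. It ranged from 23.9 to 26.7 CPM in control libraries and from 26.8 to 27.8 CPM with bezafibrate, a log2 fold change of 0.14 that did not pass (SE 0.066, adjusted p 0.158, edgeR). With ascites it ranged from 24.0 to 25.2 CPM and in the combination from 28.1 to 29.6 CPM, a rise of 0.22 (SE 0.068, adjusted p 0.0163). That call was lost without ascites library 2 (adjusted p 0.0712) or combination library 2 (0.0549), and under 3 of 16 alternatives in all. CRAT, which moves acetyl and other short groups between carnitine and coenzyme A, was called higher with bezafibrate against control (0.20, SE 0.072, adjusted p 0.0469) and not in the combination against ascites (0.12, SE 0.073, adjusted p 0.326). The CRAT call was lost without control library 1 (adjusted p 0.119), control library 3 (0.207) or any 1 of the bezafibrate libraries (0.109, 0.103 and 0.0790), and without combination library 3 it was called in the comparison with ascites (0.20, adjusted p 0.0380). Counting all alternatives, the CRAT call against control was lost under 9 of 16. Whether the changes of CPT2 and CRAT differ between the ascites states was tested with the interaction, in which no member passed.

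**Figure D3:**
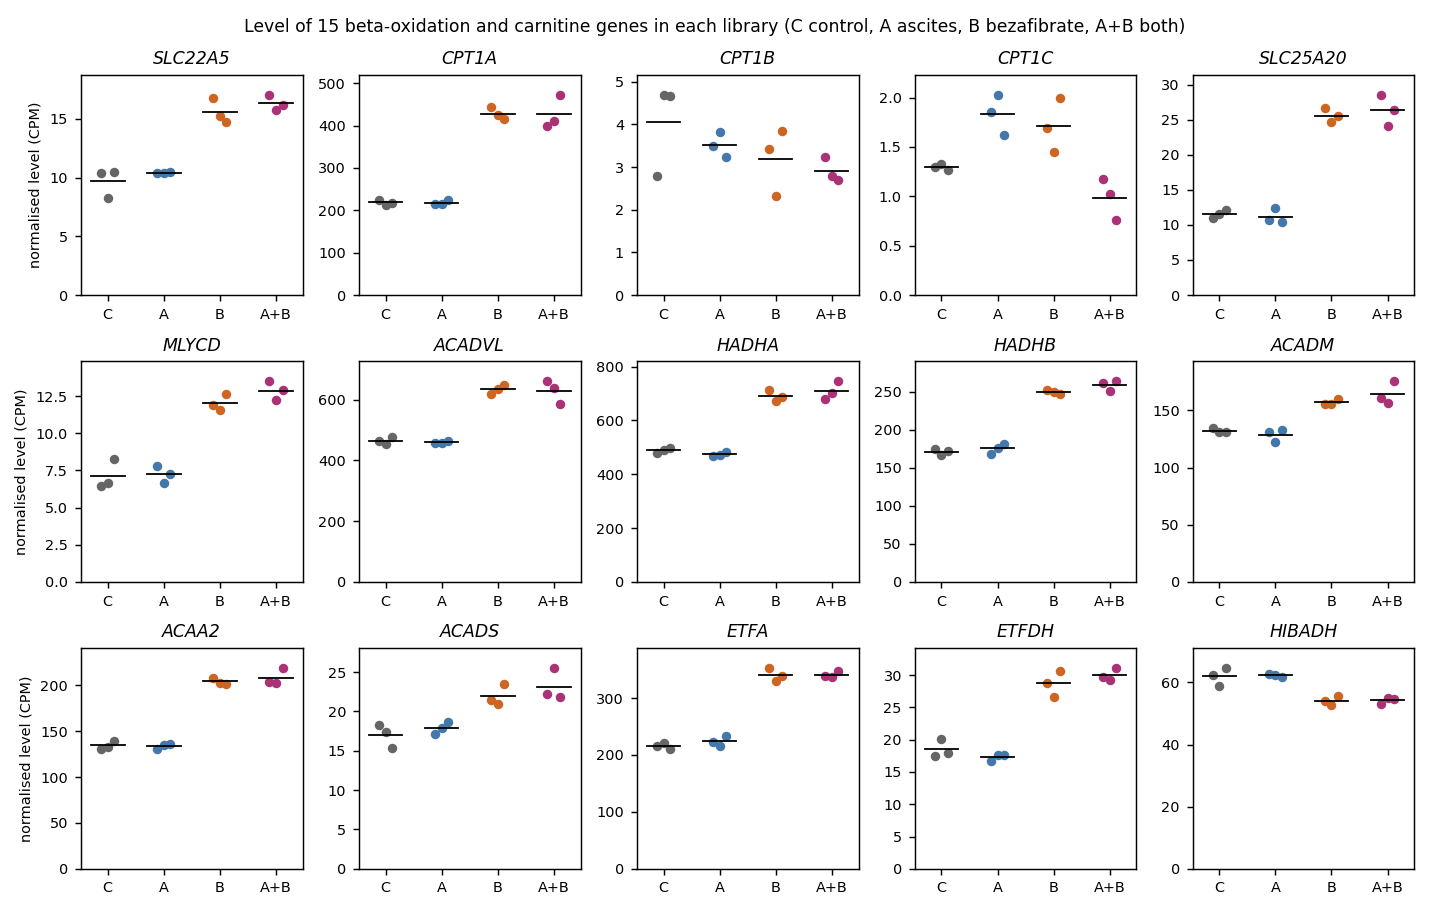
Normalised level (CPM, y axes linear from 0) of 15 genes in each of the 12 libraries, by group (x axes: C control, A ascites, B bezafibrate, A+B combination). Points are libraries and bars are means of 3. CPT1A lies between 399 and 473 CPM in the drug libraries and between 212 and 225 CPM in the others, while CPT1C is lowest in the combination (0.760 to 1.17 CPM) and HIBADH lies lower with the drug.

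In the long-chain step, 3 of the 4 tested genes rose in each comparison. ACADVL, the very-long-chain acyl-CoA dehydrogenase that opens each round for long chains, had the highest control level per kilobase of the set (188 ± 4.33 CPM per kilobase). Its libraries held 465, 455 and 477 CPM in the control group, 456, 459 and 463 with ascites, 620, 634 and 648 with bezafibrate and 660, 638 and 584 in the combination, where library 3 was the lowest. It rose by 0.45 in both comparisons (SE 0.033 each, adjusted p 2.48e-13 and 2.22e-13, edgeR). ACAD9, a related dehydrogenase that is also needed for assembly of respiratory complex I, had log2 fold changes of 0.02 (SE 0.059) and 0.01 (SE 0.062), with adjusted p of 0.873 and 0.948 in edgeR.

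HADHA and HADHB encode the alpha and beta subunits of the mitochondrial trifunctional protein, which carries the hydratase, the second dehydrogenase and the thiolase for long chains. HADHA had 481, 489 and 497 CPM in control libraries and 469, 471 and 484 CPM with ascites, against 713, 672 and 689 CPM with bezafibrate and 680, 702 and 745 CPM in the combination. HADHB had 174, 167 and 172 CPM in control libraries and 168, 177 and 182 CPM with ascites, against 252, 250 and 247 CPM with bezafibrate and 262, 252 and 264 CPM in the combination. For both genes all drug libraries lay above all libraries without the drug. HADHA rose by 0.50 (SE 0.031, adjusted p 9.06e-16, edgeR) and 0.58 (SE 0.031, adjusted p 1.75e-17), and HADHB by 0.54 (SE 0.034, adjusted p 1.71e-15) and 0.56 (SE 0.035, adjusted p 8.71e-16).

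The starts of HADHA and HADHB face away from each other on chromosome 2. In RefSeq (GRCh38.p14) they lie at 26244632 (HADHA, minus strand) and 26244939 (HADHB, plus strand), 307 bases apart, and their windows share 194 bases. Other annotated starts exist, and which start these cells use was not measured. The annotated spans of the genes overlap on opposite strands in GENCODE release 29, but none of their exon bases are shared. The stretch of 250 bases before the HADHB start (chr2:26244689-26244938, plus strand), which lies wholly between both RefSeq starts, is shown because the subunit genes rose together. Of these bases, 69.2% are G or C. In GENCODE release 29 HADHB begins at 26243170, so there the stretch lies within the span of the gene.
HADHB: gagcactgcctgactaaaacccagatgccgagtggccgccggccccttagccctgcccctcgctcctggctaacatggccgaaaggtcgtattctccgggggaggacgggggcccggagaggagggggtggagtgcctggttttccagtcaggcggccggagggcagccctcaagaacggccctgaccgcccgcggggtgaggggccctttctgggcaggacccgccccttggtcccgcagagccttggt

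Both genes of the medium-chain step rose. ACADM, the medium-chain acyl-CoA dehydrogenase, had 135, 131 and 131 CPM in control libraries, 131, 122 and 133 with ascites, 156, 156 and 160 with bezafibrate and 161, 157 and 175 in the combination. The groups did not overlap, and the rises were 0.25 (SE 0.040, adjusted p 8.40e-06, edgeR) and 0.35 (SE 0.041, adjusted p 1.33e-08). ACAA2, the thiolase that cleaves medium-chain ketoacyl-CoA, had 131, 133 and 140 CPM in control libraries and 130, 135 and 136 CPM with ascites. It had 208, 203 and 202 CPM with bezafibrate and 204, 202 and 219 CPM in the combination, above every library without the drug. Its rises were 0.60 (SE 0.037, adjusted p 8.86e-16, edgeR) and 0.64 (SE 0.038, adjusted p 2.27e-16).

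Of the members with a promoter window, only ACAA2 held a sequence close to the repeat that PPAR and its partner RXR are known to bind, the half-site AGGTCA as a direct repeat with 1 base between. The motif was searched on both strands in RefSeq windows of 250 bases before to 50 after each start (GRCh38.p14), which 29 of the 35 genes had, with 35 windows in all. CPT1B, CRAT, ACAD11, DECR1, ETFDH and HIBADH had none. The exact repeat was in 0 of the 35 windows and in 0.0228% of all 35116 windows. With at most 1 of the 12 half-site bases changed it was in 0 of 35 and in 0.336% of all windows, and with at most 2 changed in 1 of 35 (2.86%) and in 2.97% of all. The half-site alone was in 3 of 35 windows (8.57%; ACAD10, PCCA and MCEE) and in 13.8% of all windows, a count that includes any half-site within a repeat. The share of member windows with a match was thus near or below that of all windows. Sequence outside these windows was not searched. The ACAA2 match lies at chr18:49813597-49813609 (GRCh38.p14, minus strand), 76 bases before the RefSeq start, and is shown in capitals within chr18:49813567-49813639. In GENCODE release 29 ACAA2 reaches to 49813960, so the match lies within the gene there. It is a match of letters and not a tested site, and the start used in CAOV3 cells is not known.
ACAA2: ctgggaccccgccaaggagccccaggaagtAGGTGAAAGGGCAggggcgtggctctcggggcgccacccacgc

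In the short-chain step only ACADS passed in both comparisons. ACADS, the short-chain acyl-CoA dehydrogenase, had 18.3, 17.3 and 15.3 CPM in control libraries, 17.2, 17.9 and 18.7 with ascites, 21.5, 20.98 and 23.5 with bezafibrate and 22.2, 25.5 and 21.8 in the combination. It rose by 0.36 (SE 0.082, adjusted p 0.00105, edgeR) and 0.37 (SE 0.083, adjusted p 0.00117), without overlap between drug and no-drug libraries. HADH, the hydroxyacyl-CoA dehydrogenase for short chains, was called in the combination against ascites (0.16, SE 0.056, adjusted p 0.0471) and not in bezafibrate against control (0.13, SE 0.055, adjusted p 0.113). The HADH call was lost without ascites library 1 (adjusted p 0.109), ascites library 2 (0.194), combination library 2 (0.0693) or combination library 3 (0.173), and under 11 of 16 alternatives when other scalings, filters and tools are counted. ECHS1, the short-chain hydratase, stayed between 113 and 125 CPM in all 12 libraries, with log2 fold changes of 0.04 (SE 0.038, adjusted p 0.571, edgeR) and -0.05 (SE 0.039, adjusted p 0.453).

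Among the enzymes that prepare unsaturated chains, DECR1, the dienoyl-CoA reductase, was called higher in both comparisons (0.18 in each, SE 0.063 and 0.064, adjusted p 0.0359 and 0.0475, edgeR). Its levels were 32.8 to 33.95 CPM in control libraries, 32.2 to 37.4 with ascites, 35.9 to 40.7 with bezafibrate and 38.3 to 39.1 in the combination. The DECR1 calls were near the threshold: the call against control was lost without any 1 control library (adjusted p 0.0615, 0.0935 and 0.116) or without bezafibrate library 2 (0.272), and the call against ascites without ascites library 1 (0.226), ascites library 3 (0.186) or any 1 combination library (0.0752, 0.0829 and 0.0778). Counting other scalings, filters and tools as well, the DECR1 call was lost under 7 of 16 alternatives against control and 13 of 16 against ascites. The isomerases ECI1 and ECI2, which move a double bond into the position beta-oxidation can handle, had log2 fold changes of 0.08 and 0.04 (ECI1) and -0.03 and -0.05 (ECI2), none of which passed. ACAD10 and ACAD11, acyl-CoA dehydrogenases of less settled roles, had changes between 0.02 and 0.12 and did not pass. Of the ACAD11 exon bases, 24.8% are shared with neighbouring genes, so its count is uncertain.

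Electron transfer genes rose unevenly. ETFA, the alpha subunit of the electron transfer flavoprotein, had 216, 221 and 210 CPM in control libraries and 222, 215 and 234 CPM with ascites. It had 352, 330 and 338 CPM with bezafibrate and 338, 338 and 348 CPM in the combination, with no overlap. It rose by 0.66 (SE 0.034, adjusted p 4.39e-18, edgeR) and 0.61 (SE 0.034, adjusted p 5.53e-17), the smallest adjusted p of the 34 genes in bezafibrate against control. ETFDH, the membrane oxidoreductase that takes electrons from the flavoprotein to ubiquinone, had 17.5, 20.1 and 17.9 CPM in control libraries, 16.7, 17.6 and 17.6 with ascites, 28.8, 26.7 and 30.7 with bezafibrate and 29.7, 29.2 and 31.1 in the combination. Its rises were 0.63 (SE 0.074, adjusted p 1.50e-08, edgeR) and 0.79 (SE 0.076, adjusted p 1.13e-10). In the annotation, 14.9% of its exon bases are shared with genes on the opposite strand, and the strand setting of the counting is not given in the sources used here.

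ETFB, the beta subunit and partner of ETFA, had 119, 110 and 110 CPM in control libraries, 115, 114 and 114 with ascites, 121, 122 and 125 with bezafibrate and 131, 122 and 108 in the combination. Its log2 fold changes of 0.12 (SE 0.047, adjusted p 0.0924, edgeR) and 0.08 (SE 0.048, adjusted p 0.279) did not pass. The ratio of counts was computed for the 3 pairs of partner subunits in the set. It was chosen after the values of ETFA and ETFB were seen, so it is given as a description. A permutation test was also run on the ratios, but because of that choice its p-values are not used here. ETFA to ETFB was 1.91 ± 0.0939 in control, 1.96 ± 0.0853 with ascites, 2.77 ± 0.113 with bezafibrate and 2.85 ± 0.325 in the combination (SD, n = 3 each). The drug libraries were higher by 0.54 on the log2 scale. The lowest drug library had a ratio of 2.59 and the highest library without the drug 2.05.

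For the subunits of the trifunctional protein, HADHA to HADHB was 2.86 ± 0.0901 in control, 2.71 ± 0.0738 with ascites, 2.77 ± 0.0681 with bezafibrate and 2.74 ± 0.123 in the combination, a log2 difference with the drug of -0.01. PCCA to PCCB, the subunits of propionyl-CoA carboxylase, was 0.412 ± 0.0439, 0.356 ± 0.00911, 0.435 ± 0.0546 and 0.405 ± 0.00791 in the same order, a difference of 0.13, with drug and no-drug libraries overlapping. The ratios are of RNA counts uncorrected for transcript length, so only their change between groups can be read.

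**Figure D4:**
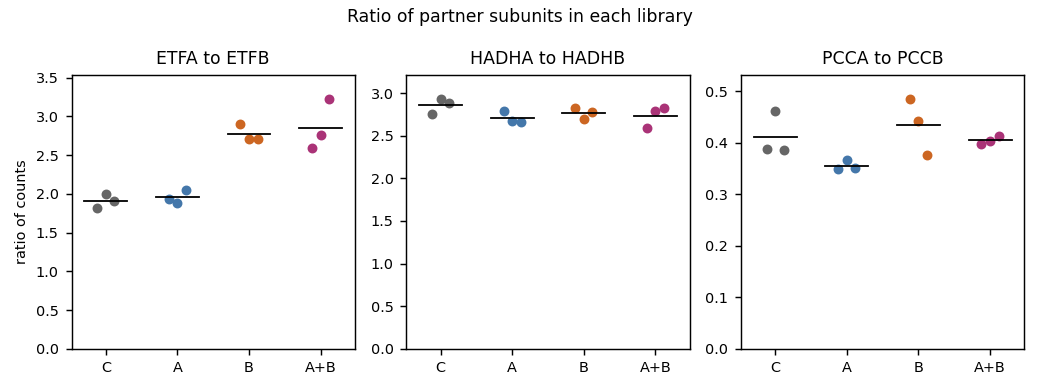
Ratio of the counts of partner subunits in each library (y axes, linear from 0) for ETFA to ETFB, HADHA to HADHB and PCCA to PCCB, by group (x axes: C control, A ascites, B bezafibrate, A+B combination). Points are libraries and bars are means of 3. Only the ETFA to ETFB ratio separates the drug libraries (2.59 and above) from the others (2.05 and below).

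Branched-chain amino acid genes did not rise. HIBADH, which oxidises hydroxyisobutyrate in valine breakdown, had 62.3, 58.9 and 64.6 CPM in control libraries, 62.7, 62.5 and 61.9 with ascites, 54.0, 52.7 and 55.5 with bezafibrate and 53.0, 55.1 and 54.8 in the combination. It fell by 0.20 on the log2 scale in both comparisons (SE 0.049 and 0.050, adjusted p 0.00286 and 0.00275, edgeR), with every drug library below every library without the drug. IVD, the isovaleryl-CoA dehydrogenase of leucine breakdown, was called lower in bezafibrate against control (-0.11, SE 0.038, adjusted p 0.0301) and not in the combination against ascites (-0.09, SE 0.038, adjusted p 0.125). That call was lost without control library 2 (adjusted p 0.108), control library 3 (0.125), bezafibrate library 1 (0.0828) or bezafibrate library 2 (0.163), and under 5 of 16 alternatives in all. ACADSB and ACAD8, the dehydrogenases of isoleucine and valine breakdown, and HIBCH, which acts before HIBADH on the valine route, had changes between -0.11 and 0.14 and did not pass.

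In propionyl-CoA disposal, which leads from the odd-chain and branched-chain end product to succinyl-CoA, 0 of 4 genes passed in either comparison in edgeR. PCCA had log2 fold changes of 0.12 and 0.21, PCCB of 0.05 and 0.02, MCEE, the methylmalonyl-CoA epimerase, of -0.08 and 0.13, and MMUT, the methylmalonyl-CoA mutase, of -0.09 and -0.06. Only PCCA in the combination against ascites had an unadjusted p under 0.05 among them (0.0244, adjusted p 0.106). Of the PCCB exon bases, 25.4% are shared with a gene on the opposite strand.

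Ascites changed none of the 34 genes past the threshold. In ascites against control, 0 of 34 genes were called by edgeR, 0 had an unadjusted p under 0.05 and the lowest adjusted p was 0.833, while 0.0882% of all genes tested were called. In the combination against bezafibrate, 0 of 34 were called, with a lowest adjusted p of 0.82 and CPT1C alone under an unadjusted p of 0.05, against 0.128% of all genes. The ascites effect averaged over both drug states called 0 of 34, with PCCA alone under an unadjusted p of 0.05 (log2 -0.14, SE 0.061, p 0.0315, adjusted p 0.65 in edgeR), against 0.281% of all genes. The interaction called 0 of 34 and 0% of all genes. Of the 12470, 445 had an unadjusted p under 0.05, a smaller share than the 0.05 that would pass by chance with no interaction. DESeq2 and limma voom also called 0 members in each of these 4 comparisons. The summed level of the 35 genes was 2765 ± 21.1 CPM in control and 2765 ± 39.2 CPM with ascites, against 3700 ± 37.0 with bezafibrate and 3737 ± 50.4 in the combination.

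Neighbouring genes of fatty acid use were read from 8 lists of 86 further genes, of which 79 were tested. In bezafibrate against control 25 of 79 were called (21 higher, 4 lower) and in the combination against ascites 25 of 79 (22 higher, 3 lower), or 31.6% in each, beside 17.6% and 17.8% of all genes tested. These lists too were chosen with earlier results of these data known, so the higher share is a description only. The single lists hold 6 to 17 tested genes, so their counts are descriptions, and nothing is called particular to a list. Of the acyl-CoA activation list, whose enzymes make the CoA esters that enter the shuttle, 4 of 9 tested genes rose in each comparison: ACSL1 (1.77 and 1.38), ACSL5 (1.35 and 1.27), ACSL3 (0.42 and 0.40) and SLC27A2 (0.32 and 0.40). ACSL1 went from 6.84 ± 0.790 CPM in control to 23.2 ± 0.269 with bezafibrate, and from 6.91 ± 0.488 with ascites to 17.9 ± 1.69 in the combination. Of the carnitine synthesis and transport list, 2 of 6 rose and 1 of 6 fell in each comparison. SLC22A4, a relative of SLC22A5, rose by 0.80 and 0.78, and SLC25A29, a carrier of basic amino acids related to SLC25A20, fell by 0.47 and 0.40. BBOX1, the last enzyme of carnitine synthesis, was called higher in both but was scarce, at 0.0981 ± 0.0426 CPM in control, 0.0520 ± 0.0901 with ascites, 1.14 ± 0.118 with bezafibrate and 0.736 ± 0.180 in the combination, so its fitted fold change depends on the prior count and is not given.

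In the peroxisomal oxidation list, the parallel route for very long chains, 7 of 15 rose with bezafibrate against control and 5 of 15 in the combination against ascites. Those that rose in both included HSD17B4 (0.59 and 0.62), ECH1 (0.52 and 0.44), ACAA1 (0.50 and 0.47) and ABCD3 (0.20 and 0.22). In the fuel switch and ketone list, 5 of 8 and 4 of 8 rose, with PDK4, which restrains pyruvate oxidation, at 8.26 ± 0.353 CPM in control and 139 ± 1.89 with bezafibrate (log2 fold change 4.07 in both comparisons). Of its relatives, PDK1 rose by 0.38 and 0.47 and PDK3 by 0.29 and 0.32.

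Among 11 tested regulators, 3 rose and 1 fell in bezafibrate against control and 4 rose and 1 fell in the combination against ascites. PPARD rose by 0.62 and 0.47, the corepressor NCOR1 by 0.26 and 0.29 and the nuclear receptor ESRRA by 0.17 and 0.18, and PPARG fell by 0.39 and 0.37. PPARG RNA was at 89.8 ± 1.70 CPM in control, PPARD at 9.84 ± 0.790 and PPARA at 4.82 ± 0.508. These levels are not corrected for exon length, so they do not rank the receptors against each other. PPARA changed by 0.09 and 0.21 (adjusted p 0.777 and 0.407, edgeR) and did not pass. In the list of enzymes upstream of branched-chain oxidation, 2 of 17 fell in bezafibrate against control, and in the combination against ascites 2 rose and 1 fell, shares called of 11.8% and 17.6% that do not exceed the 17.6% and 17.8% of all genes. MCCC1, a subunit of the leucine-pathway carboxylase, fell in both (by 0.28 and 0.25). Of the flavin supply list, 0 of 6 passed in either comparison in edgeR (1 and 0 with an unadjusted p under 0.05). Of the malonyl-CoA supply list, 0 of 7 and 1 of 7 passed with the drug (4 and 3 with an unadjusted p under 0.05). ACACA, the carboxylase that makes malonyl-CoA, was the only gene of the 8 lists called for ascites: it fell by 0.18 in ascites against control (SE 0.038, adjusted p 0.0449, edgeR) and by 0.15 averaged over both drug states (SE 0.026, adjusted p 0.00236).

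Some marker genes of cell types moved with the drug in the same libraries. The 3 hepatocyte markers summed to between 3.45 and 6.00 CPM in control and 2.78 and 3.97 CPM with ascites, against 10.4 to 12.8 CPM with bezafibrate and 10.4 to 12.3 CPM in the combination, almost all of it APOA2 (mean 4.29 CPM in control and 11.3 CPM with bezafibrate). ALB stayed at or under 0.818 CPM and CPS1 at or under 0.137 CPM in every library. The 5 fibroblast markers, mostly LUM, summed to between 186.1 and 196.6 CPM without the drug and between 159.0 and 177.4 CPM with it. The 9 epithelial and serous ovarian markers summed to between 6152 and 6275 CPM in control, 6306 and 6477 with ascites, 6408 and 6726 with bezafibrate and 6875 and 6974 in the combination. Within that list the mean went from 18.6 CPM in control to 53.3 CPM with bezafibrate for CDH1 and from 762 to 1118 CPM for KRT7, but from 3005 to 2914 CPM for KRT8 and from 1784 to 1720 CPM for KRT18. Of the 8 blood markers, 4 (PTPRC, CD3E, TYROBP and S100A8) were at 0 in all libraries, the 8 summed to at most 2.11 CPM, and the 3 platelet markers were at 0 in all libraries. The part of these shifts in the changes of the 34 genes was not tested.

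Per kilobase of exon, the members spanned a wide range in the control group. After ACADVL, the control levels ran from 156 ± 2.64 CPM per kilobase for HADHA, 94.3 ± 2.35 for ETFA, 76.6 ± 1.72 for HADHB and 71.8 ± 1.65 for ECHS1 to 48.3 ± 0.837 for ACADM (SD, n = 3). Each of these lay above the next without overlap of the 3 libraries. CPT1A (37.7 ± 1.11) and ACAA2 (36.7 ± 1.25) came next and overlapped. SLC25A20 (6.12 ± 0.307) stood in a run of genes from CRAT (8.23 ± 0.497) to MMUT (5.61 ± 0.111) in which each neighbour overlapped the next. SLC22A5 (2.93 ± 0.382), CPT1B, MLYCD (0.547 ± 0.0743) and CPT1C lay near the low end. The exon lengths are those of the union of annotated exons, and which transcripts these cells use was not measured, so the order between genes is approximate.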

How the data were processed

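RNA of 12 CAOV3 libraries in 4 groups of 3 was analysed from the whole-number counts per gene that the authors deposited, 1 table per library. The submitters' processing notes name Trimmomatic 0.39, STAR 2.7.9a, RSEM 1.3.3, DESeq2 1.28.1 and the build GRCh38 without roles. Whether the counts are rounded RSEM estimates, the strand setting and the annotation are not given in the sources used here. Groups and replicate numbers came from the labels. Genes were kept by filterByExpr (minimum count 10, minimum total 15), which kept 12470 of 19677 genes and removed 7207, and scaled by TMM in edgeR 4.0.16 (R 4.3.3). A fit of 1 mean per group over all 12 libraries (8 residual degrees of freedom) gave each comparison by glmQLFTest (glmQLFit, robust), edgeR's quasi-likelihood test, with Benjamini-Hochberg adjustment over all genes tested, and a gene was called under 0.05. The biological coefficient of variation was 3.06%. Standard errors are the absolute log2 change over the square root of F. Only the edgeR comparison of bezafibrate against control was tested on simulated data.

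Values in every library are given for members called in a drug comparison with an absolute log2 fold change of at least 0.25 in either, for any member called for ascites or the interaction, and for the 3 CPT1 genes. CPT2, CRAT, HADH, DECR1, IVD, ETFB and HIBADH fall outside that rule and were named after their values were seen. Genes of the 8 further lists are named only if called in both drug comparisons or in the averaged ascites effect; PPARA was named in addition, and some genes that meet this rule are not reported here. The members and lists were chosen with earlier results of these data known. Replicates were compared by a chi-square per degree of freedom (1.44 to 4.45), and none agreed within sampling noise, so each library counts once. Exon lengths and overlaps come from GENCODE release 29 (GRCh38), and promoter windows from RefSeq (GRCh38.p14). No protein comparison of the CPT1 genes was made. Alternatives were other scalings and filters, DESeq2 1.42.0, limma 3.58.1 voom, a replicate block, only the groups compared, a stricter threshold, added read-through counts and leaving out each library.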

Additional observations from a re-analysis of the deposited data

How the results depend on the processing

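Under the alternatives run, the count of members called stayed between 13 and 17 in bezafibrate against control and between 13 and 17 in the combination against ascites, and at 0 in both ascites comparisons, the averaged ascites effect and the interaction. Leaving out 1 library gave 13 to 15 and 13 to 16. The 40 single-gene results, with 640 alternatives in all, cover called and uncalled genes alike. Of the 40, 32 kept the same outcome, called or not called, under every alternative. These include results not called in the main fit: CPT1B in both drug comparisons, CPT1C, CPT2 and HADH against control, and IVD against ascites. In all, 54 calls were lost, 1 was gained and 0 directions reversed. The lost calls were those of CRAT, DECR1, IVD, CPT1C, CPT2 and HADH, and the cause was not tested. SLC22A5, CPT1A, SLC25A20, MLYCD, ACADVL, HADHA, HADHB, ACADM, ACAA2, ACADS, ETFA, ETFDH and HIBADH were called in both drug comparisons under every alternative run. A fit with the replicate number as a block (replicate block) called 16 and 17 members. Same-numbered libraries of different groups did not deviate together (median correlation -0.0067 over 18 pairs, 3 of them above 0.1), and 4 of 12 libraries were closest to one with their own number, so the numbers are not treated as pairs. Without combination library 3 the averaged ascites effect called 118 genes in all against 35, and 0 members. With 3 libraries per group, genes at about 1 CPM, such as CPT1C, are limited by counting error.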
